A study of Mus musculus with 7 samples.

Results

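The genes followed here in mouse heart, which leukocytes and venules use to hold on to each other, were Sele, Selp, Selplg, Vcam1, Ackr1 and F11r. They were chosen by gene name, as a set of selectins and venular adhesion genes, with earlier results of these data known. Each is 1 of 20343 genes in the count table. All 6 are among the 7667 genes that had enough counts to be tested. Ackr1 reached that filter only through the transferred hearts, since 0 of 4 control hearts were above its cutoff of about 0.485 CPM (rounded counts divided by the library total, times 1000000), whereas the other 5 members passed it in all 4 control hearts. All other CPM values given here use library totals scaled by TMM, edgeR's correction for composition.

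The messenger RNA came from the apex of the heart of NSG-DR1 mice, labelled NSG-DRB1*0101, an immunodeficient strain with a human HLA-DR1 transgene. Mice of the NSG background have no T, B or NK cells of their own, so the leukocytes they make are mainly myeloid. The 4 control mice received nothing, and the 3 transferred mice were examined 6 weeks after human CD4+ T cells had been given to them. The age and sex of the mice and the donors of the cells are not given in the sources used here, and nothing states whether hearts of a group came from separate litters, so the p-values measure the spread between these hearts only.

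Leukocytes leave the blood mainly through postcapillary venules. Endothelial E-selectin (Sele) and P-selectin (Selp) catch passing cells through sugars carried by PSGL-1 (Selplg) and other leukocyte glycoproteins, VCAM-1 (Vcam1) then holds cells that carry the integrin VLA-4, and JAM-A (F11r) sits at the junctions between endothelial cells. ACKR1 (Ackr1), the Duffy antigen receptor, binds chemokines without signalling through G proteins and marks venular endothelium as well as red cells. Inflammatory cytokines are known to switch on Sele and Vcam1 in endothelium, while P-selectin is also stored in platelets.

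Of the members, 4 lie on chromosome 1 of build GRCm38. Sele (positions 164039614 to 164058487, plus strand) and Selp (164115264 to 164150026, plus strand) lie near each other. F11r spans 171437561 to 171464593 on the plus strand, and Ackr1 spans 173331886 to 173333503 on the minus strand. Vcam1 is on chromosome 3 (116110020 to 116129688, minus strand) and Selplg on chromosome 5 (113817798 to 113832528, minus strand). Counts were summed over all exons of each gene, with combined lengths from 1158 bases for Ackr1 to 4054 for Sele.

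The promoters of 3 members whose values were higher together, Sele, Selp and Ackr1, are shown with that of F11r, whose level was alike in both groups. Each line gives the 250 bases before the start site in the RefSeq promoter table of GRCm38.p6, read 5′ to 3′ on the gene's strand. The windows are chr1:164047984-164048233 for Sele, inside the span of the gene because the table uses a start site within it, chr1:164115014-164115263 for Selp, chr1:173333504-173333753 (minus strand) for Ackr1 and chr1:171437311-171437560 for F11r. The table matched 4 of the 6 members. Capitals mark matches to 5 motifs on either strand, described after the sequences.
Sele: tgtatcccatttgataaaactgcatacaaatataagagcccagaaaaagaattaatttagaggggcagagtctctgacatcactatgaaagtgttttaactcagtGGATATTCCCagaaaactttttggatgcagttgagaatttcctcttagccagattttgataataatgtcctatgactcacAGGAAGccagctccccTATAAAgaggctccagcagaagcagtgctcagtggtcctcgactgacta
Selp: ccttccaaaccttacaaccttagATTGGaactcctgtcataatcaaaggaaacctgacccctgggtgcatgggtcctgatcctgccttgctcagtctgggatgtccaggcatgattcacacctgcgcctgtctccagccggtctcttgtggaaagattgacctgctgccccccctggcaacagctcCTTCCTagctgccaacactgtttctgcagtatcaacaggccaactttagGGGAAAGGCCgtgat
Ackr1: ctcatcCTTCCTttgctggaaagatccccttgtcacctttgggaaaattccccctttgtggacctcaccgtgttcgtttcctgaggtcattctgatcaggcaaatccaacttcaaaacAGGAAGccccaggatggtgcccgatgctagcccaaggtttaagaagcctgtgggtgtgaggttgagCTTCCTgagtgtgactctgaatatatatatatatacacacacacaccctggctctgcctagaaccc
F11r: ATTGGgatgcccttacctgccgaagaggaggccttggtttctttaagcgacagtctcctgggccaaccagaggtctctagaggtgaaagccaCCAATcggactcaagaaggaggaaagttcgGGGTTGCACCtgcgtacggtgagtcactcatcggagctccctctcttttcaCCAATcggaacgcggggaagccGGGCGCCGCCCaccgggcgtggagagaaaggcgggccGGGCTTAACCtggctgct

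The searched motifs were the kappa-B-like pattern GGGNNNNNCC, the TATA box core TATAAA, the CCAAT box CCAAT, the ETS-type site AGGAAG and the interferon-response-like pattern GAAANNGAAA. Only exact matches to these letters, with N as any base, were counted, so near matches are unmarked. Sele held 1 TATA core, which starts 49 bases before the start site, as well as 1 kappa-B-like match and 1 ETS-type match. Selp held 1 kappa-B-like match, 1 CCAAT box and 1 ETS-type match, and Ackr1 held 3 ETS-type matches. F11r held 4 kappa-B-like matches, of which the middle pair overlaps, and 3 CCAAT boxes. The interferon-response-like pattern was found in none of these 4 windows. Of 32851 promoter windows of the same length, 45.8% held the kappa-B-like pattern, 12.4% the TATA core, 33.8% the CCAAT box, 29.5% the ETS-type site and 2.98% the interferon-response-like pattern. GC content was 40.4% in Sele, 49.2% in Ackr1, 53.6% in Selp and 60% in F11r, against a median of 52.4% over all windows. F11r had 17 CpG pairs, Sele 1 and each of the others 3, against a median of 6.

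Levels between genes were compared per kilobase of exon. In control hearts F11r stood far above the rest at 58.98 ± 2.66 CPM per kilobase (SD, n = 4), followed by Vcam1 at 7.92 ± 0.846 and Selplg at 3.04 ± 0.876. Selp was at 0.644 ± 0.232, Sele at 0.415 ± 0.131 and Ackr1 at 0.314 ± 0.0667 CPM per kilobase (SD, n = 4). Sele differed from Ackr1 by less than the SD of Sele, and Selp from Sele by about the SD of Selp, so the order of these 3 is not settled. In transferred hearts F11r was again highest at 58.8 ± 3.33, with Vcam1 at 16.02 ± 5.69 and Selplg at 6.88 ± 2.37 CPM per kilobase (SD, n = 3). The lowest 3 were Selp at 3.48 ± 3.46, Ackr1 at 2.42 ± 2.08 and Sele at 2.197 ± 2.02, which differed from each other by less than their SD.

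Between the groups, 5 of the 6 members, all but F11r, were higher in every transferred heart than in any control heart, a separation seen in 5.99% of all tested genes. Ackr1 passed the filter only where it was high, so its separation was favoured by the filter. Without Ackr1 the count was 4 of 5. The same 5, Ackr1 included, reached an unadjusted p below 0.05 with edgeR's quasi-likelihood test, as did 7.17% of all tested genes in this direction. After adjustment over all tested genes, 0 of 6 passed the threshold of 0.05, where 0.235% of all tested genes did. The DESeq2 Wald test on the same genes called those 5 members, against 2.5% of all genes called higher. Because the members were chosen with earlier results of these data known, these shares are descriptive and no test of the set. Sums over the whole table were 16402179 to 25190560 counts per heart and cover chromosomes 1 to 7 and the start of chromosome 8 only. A count of 3, taken as the floor, corresponded to 0.115 to 0.189 CPM.

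**Figure D1:**
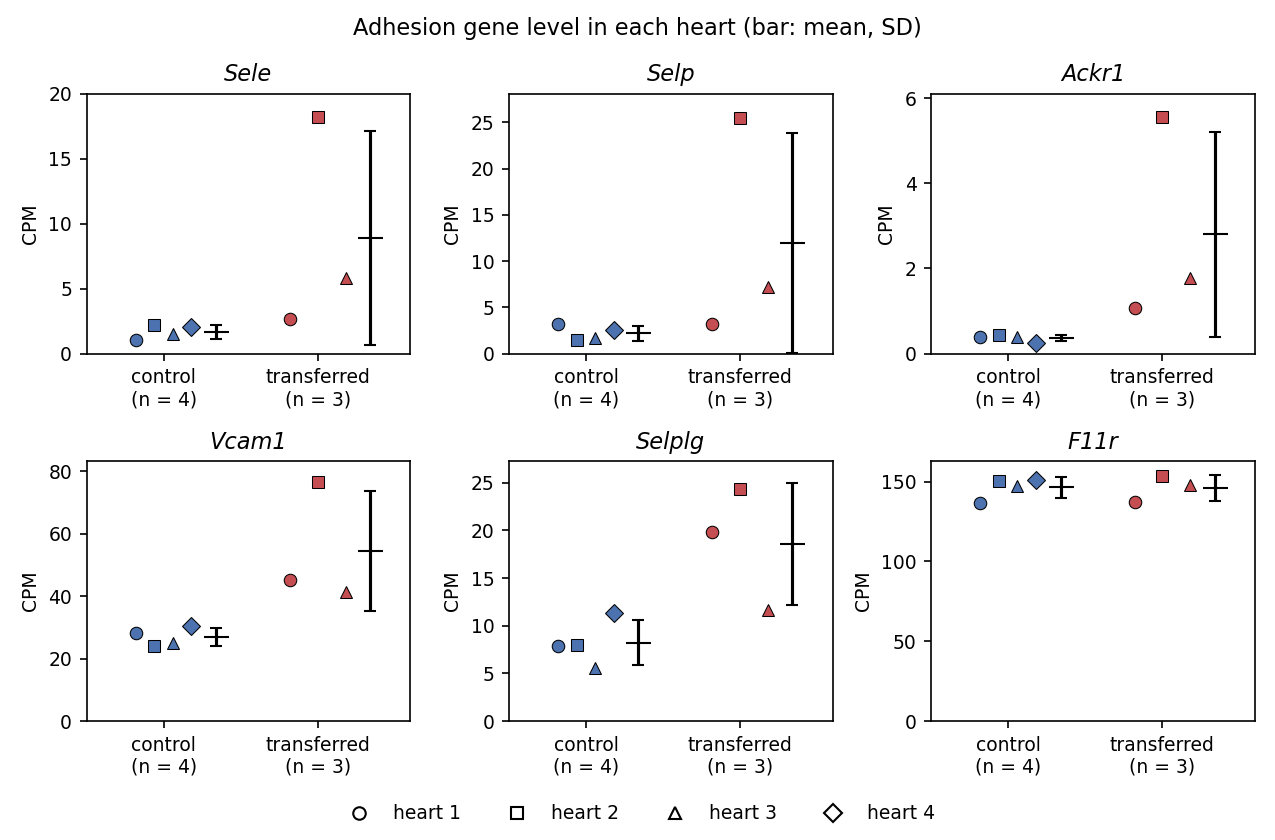
CPM (scaled by TMM) of each member in every heart, with control hearts in blue and transferred hearts in red. Symbols give the heart's number within its group, and the bar beside each group is the mean with its SD. Transferred heart 2 is the highest of the 7 hearts in all 6 panels, and the y axes start at 0 and differ between genes.

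Sele, the selectin made by activated endothelium, measured 1.02, 2.19, 1.497 and 2.02 CPM in control hearts 1 to 4. It measured 2.68, 18.2 and 5.83 CPM in transferred hearts 1 to 3. The groups did not overlap, but transferred heart 1 was close to the upper controls, and its exact 95% Poisson interval of 2.01 to 3.51 CPM overlapped that of control heart 2, 1.63 to 2.89 CPM. The mean was 1.68 ± 0.532 CPM (SD, n = 4) against 8.91 ± 8.20 CPM (SD, n = 3). On the log2 scale the fold change was 2.41 (standard error 0.60, edgeR adjusted p = 0.161). Intervals of this kind cover counting error only.

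Selp, the selectin stored in endothelial cells and platelets, measured 3.16, 1.46, 1.65 and 2.59 CPM in control hearts. Transferred hearts measured 3.19, 25.5 and 7.16 CPM. Transferred heart 1, with 63 counts, was thus level with control heart 1, with 65 counts, and the separation of the groups for Selp rests on a gap smaller than counting error. The log2 fold change was 2.45 (standard error 0.67, edgeR adjusted p = 0.201), and the group means were 2.22 ± 0.799 CPM (SD, n = 4) and 11.95 ± 11.9 CPM (SD, n = 3).

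Ackr1, the venular chemokine-binding receptor, had few counts in control hearts, at 0.389, 0.430, 0.384 and 0.252 CPM from 8, 10, 10 and 4 counts after rounding. Transferred hearts had 21, 118 and 36 rounded counts, or 1.06, 5.55 and 1.78 CPM. All 3 were above the controls, although the interval of transferred heart 1 (0.658 to 1.63 CPM) overlapped that of control heart 2 (0.206 to 0.791 CPM). The log2 fold change was 2.90 (standard error 0.56, edgeR adjusted p = 0.0702).

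The annotation places Ackr1 almost wholly within Cadm3, a gene of a cell adhesion protein on the same strand (173331892 to 173368139). Counts of both genes had fractional parts in 4 of 7 hearts, and how reads on overlapping genes were divided is not given in the sources used here, so the split between them is uncertain. Cadm3 measured 9.898 to 12.7 CPM in control hearts and 15.5, 19.3 and 15.5 CPM in transferred hearts. Its log2 fold change of 0.62 (edgeR adjusted p = 0.110) was smaller than that of Ackr1.

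Vcam1, the ligand of the integrin VLA-4, measured 28.1, 24.2, 24.99 and 30.4 CPM in control hearts and 45.2, 76.7 and 41.5 CPM in transferred hearts. All 3 transferred hearts lay well above the highest control. The group means were 26.9 ± 2.88 CPM (SD, n = 4) and 54.5 ± 19.3 CPM (SD, n = 3). Their log2 fold change was 1.02 (standard error 0.20, edgeR adjusted p = 0.0764). Among the members this was the smallest relative spread between transferred hearts apart from Selplg and F11r, with an SD of 35.5% of the mean, against 92.1% for Sele, 99.6% for Selp and 86.2% for Ackr1.

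Selplg, the leukocyte glycoprotein that P-selectin binds, measured 7.88, 8.005, 5.604 and 11.4 CPM in control hearts and 19.8, 24.3 and 11.7 CPM in transferred hearts. Here transferred heart 3 was the one next to the controls, 11.66 CPM against 11.36 CPM in control heart 4. The log2 fold change was 1.19 (standard error 0.28, edgeR adjusted p = 0.127).

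F11r, the junctional adhesion molecule, measured 136.8, 150.3, 147.2 and 151.2 CPM in control hearts and 137.01, 153.3 and 147.5 CPM in transferred hearts. The groups overlapped throughout. Its log2 fold change was -0.004 (standard error 0.07, edgeR adjusted p = 0.988), and its 95% interval ran from -0.17 to 0.16, that is from 0.89-fold to 1.12-fold. The intervals of the other members were wider, from 2.04-fold to 13.8-fold for Sele, from 1.85-fold to 16.07-fold for Selp, from 3.12-fold to 17.96-fold for Ackr1, from 1.48-fold to 2.77-fold for Vcam1 and from 1.48-fold to 3.51-fold for Selplg.

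A single transferred library, that of heart 2, carried much of the difference in the selectins and Ackr1. Transferred heart 2 stood at 10.8 times the control mean for Sele, 11.5 times for Selp and 15.3 times for Ackr1, while transferred heart 1 stood at 1.595, 1.44 and 2.92 times. Without transferred heart 2 the log2 fold change was 1.34 for Sele, 1.24 for Selp, 1.93 for Ackr1, 0.69 for Vcam1 and 0.95 for Selplg, and the edgeR adjusted p-values over all genes were 0.348, 0.390, 0.203, 0.137 and 0.351. With transferred heart 1 left out, edgeR called Sele (log2 fold change 2.84, adjusted p = 0.0423) and Ackr1 (3.29, adjusted p = 0.0353), where 0.269% of all genes were called higher. The calls of Ackr1 in filtered fits carry the limit that it passed the filter only through transferred hearts. With transferred heart 3 left out, it called Selplg (1.44, adjusted p = 0.0297), Vcam1 (1.18, adjusted p = 0.0280) and Ackr1 (3.15, adjusted p = 0.0429), against 1.64% of all genes. When all genes with at least 1 count were kept, Ackr1 alone of the 6 was called (log2 fold change 2.90, edgeR adjusted p = 0.0154), against 0.544% of all genes.

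**Figure D2:**
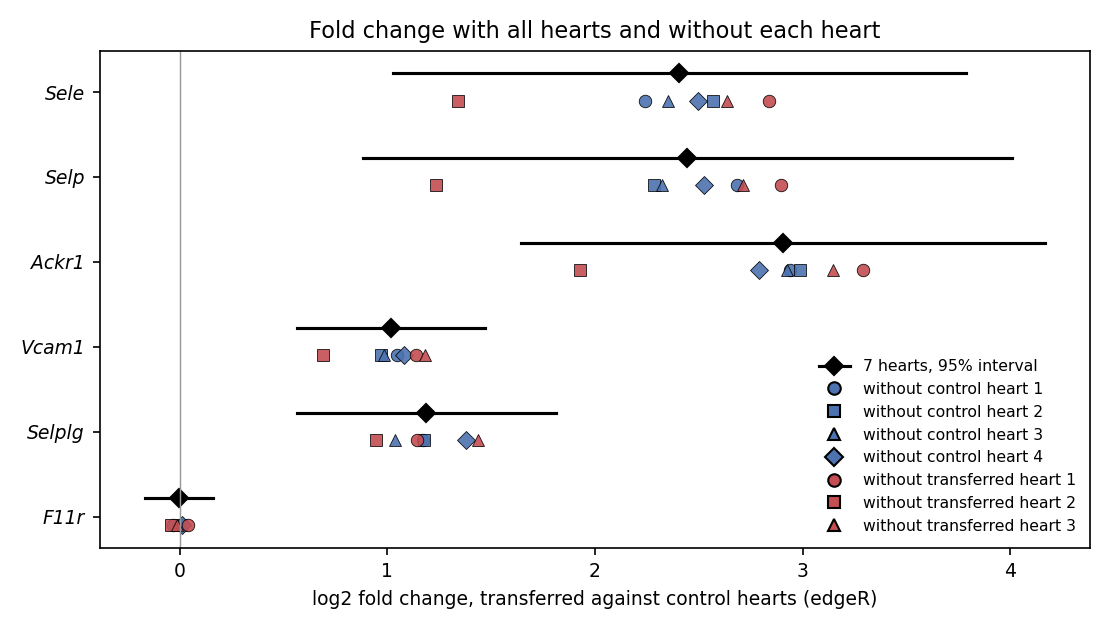
Log2 fold change of each member between transferred and control hearts from the edgeR fit over the whole table. Black diamonds with lines give the value from all 7 hearts with its 95% interval, and coloured symbols give the value with 1 heart left out. Leaving out transferred heart 2 gives the lowest value for all 6 members, and F11r stays within 0.05 of 0.

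The labels do not say whether hearts were handled in batches, but identifiers differ in form. They begin with letters for the first heart of each group and with a number for the other 5 hearts. Transferred heart 2 also has another letter code (NK) than the other transferred hearts (GP). That code and the heart itself cannot be told apart. The label of transferred heart 2 ends in h45, where those of transferred hearts 1 and 3 end in h1 and h7. Nothing states whether h45 stands for 1 heart or for a pool, and it is treated here as 1 heart. Among the 5 hearts whose identifier begins with a number, the log2 fold change was 2.67 for Sele, 3.14 for Selp, 3.33 for Ackr1, 1.17 for Vcam1, 1.13 for Selplg and 0.016 for F11r. The other form holds 1 heart of each group and allows no test. Transferred heart 1 was above control heart 1 there in all 6 members, by 2.68 against 1.02 CPM for Sele but only by 3.19 against 3.16 CPM for Selp and by 137.01 against 136.8 CPM for F11r.

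Transferred heart 2 was the highest for all 5 of these members. For Sele, Selp and Ackr1 heart 3 came next and heart 1 last. For Selplg heart 1 came before heart 3, while for Vcam1 the Poisson intervals of heart 1 (42.3 to 48.3 CPM) and heart 3 (38.7 to 44.4 CPM) overlapped, so their order is not settled. Pearson correlations of log2 CPM over the 7 hearts, which share their libraries and include the difference between the groups, were 0.90 to 0.94 for every pair among Sele, Selp, Ackr1 and Vcam1. Selplg correlated with Vcam1 at 0.92 and with Sele, Selp and Ackr1 at 0.76, 0.76 and 0.77. F11r correlated with the others at 0.07 to 0.53.

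Markers of cell types that carry these proteins were followed heart by heart. In bulk tissue, more cells of a type and more RNA per cell cannot be told apart. Neutrophil markers (10 of 13 listed genes in the table) summed to 20.4 to 46.0 CPM in control hearts and to 32.1, 339 and 62.1 CPM in transferred hearts 1 to 3, the same order of hearts as Sele, Selp and Ackr1, with transferred heart 1 inside the control range. S100a8, a neutrophil alarmin subunit, measured 2.13, 72.3 and 9.63 CPM there. Pan-leukocyte markers (8 of 11 in the table) summed to 106.9 to 146.8 CPM in control hearts and to 243.5, 264.4 and 160.8 CPM in transferred hearts, the order seen for Selplg. Broad myeloid markers (10 of 15) ran from 456.7 to 668 CPM and from 812 to 1207 CPM. At an unadjusted edgeR p under 0.05, 8 of 8 tested pan-leukocyte, 10 of 10 broad myeloid and 7 of 8 neutrophil genes were higher. In this direction 7.17% of all tested genes were. After adjustment 2 pan-leukocyte, 2 broad myeloid and 0 neutrophil genes passed the edgeR threshold, as did 0.235% of all tested genes. The pan-leukocyte genes were Coro1a, an actin regulator of leukocytes (11.4 ± 1.496 to 25.05 ± 6.51 CPM), and Arhgap30 (10.8 ± 1.08 to 20.06 ± 2.43 CPM). The myeloid genes were the macrophage receptor Mrc1 (87.98 ± 12.97 to 149.9 ± 16.5 CPM) and the complement gene C1qb (92.7 ± 15.4 to 182.6 ± 30.8 CPM). Each had an edgeR adjusted p of 0.0384. These calls, like those of Aplnr and Aqp1 given further on, were lost with a covariate for the form of the identifier, with limma-voom, without both hearts whose identifier begins with letters and without control heart 1, 2 or 4 or transferred heart 2, where 0 genes of the whole table were called. Without control heart 3, 0 genes were called higher and 1 lower. The part of these cells in the members' values was not tested.

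Platelets store P-selectin. Platelet and megakaryocyte markers (7 of 14 in the table) summed to 23.6 to 45.9 CPM in control hearts and to 142.5, 167.9 and 28.7 CPM in transferred hearts 1 to 3. Selp in the same hearts stood at 1.44, 11.5 and 3.23 times the control mean. The part of platelets in the Selp values was not tested. Red cells carry ACKR1, and erythroid markers (5 of 12), chiefly the globins Hbb-bs and Hbb-bt, ranged from 4030 to 14715 CPM in control hearts. Their sum was 13155 CPM in transferred heart 1 and 2789 and 3296 CPM in transferred hearts 2 and 3. The part of red cells in the Ackr1 values was not tested. Epithelial and mesothelial markers (4 of 12, with Esrp1 at 0 in every heart) summed to 14.1 to 41.2 CPM in control hearts and to 22.5 to 30.04 CPM in transferred hearts, beside a level F11r.

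**Figure D3:**
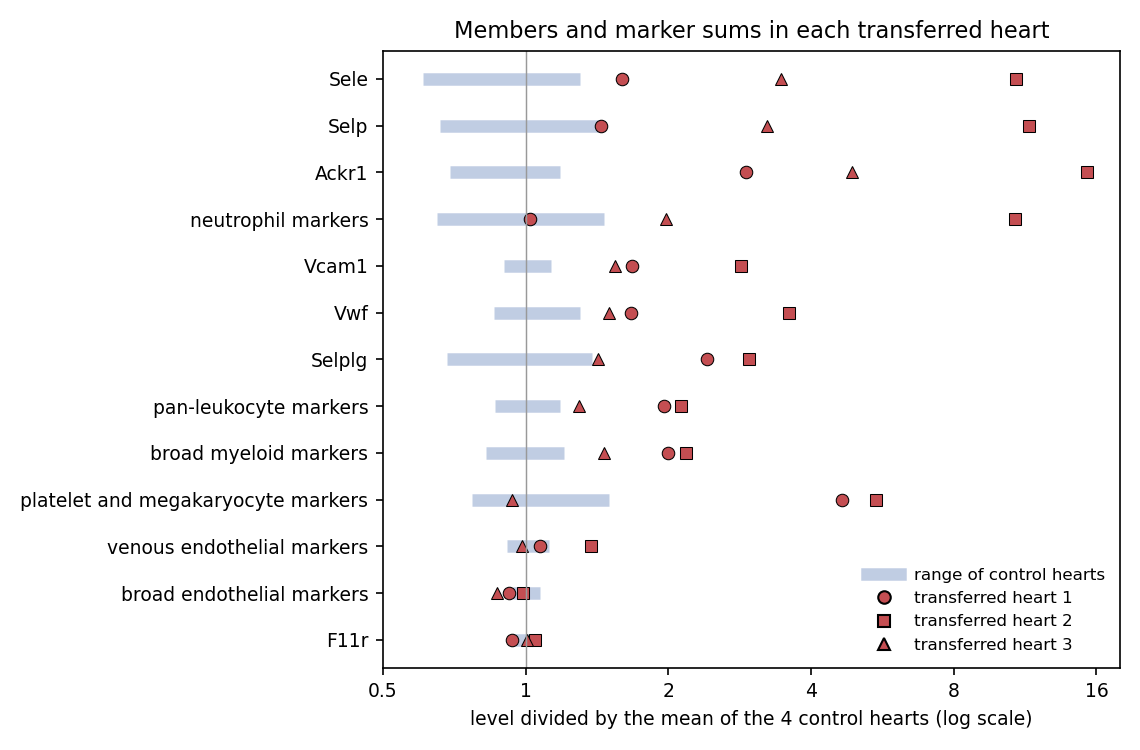
Level of members, of Vwf and of summed marker genes in each transferred heart, divided by the mean of the 4 control hearts, on a log scale. Blue bars span the 4 control hearts and red symbols are the 3 transferred hearts. Sele, Selp, Ackr1 and the neutrophil sum share the order heart 2, 3, 1, while platelet markers are high in hearts 1 and 2 only.

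The broad endothelial markers overlapped between the groups as a sum, but single markers moved in both directions. Of 16 tested, 2 were higher and 2 lower at an unadjusted edgeR p under 0.05 (7.17% and 5.27% of all tested genes). The 16 broad endothelial markers in the table (of 19 listed) summed to 4646 to 5311 CPM in control hearts and to 4297 to 4890 CPM in transferred hearts. The venous list, after the members were taken out, held 7 genes and summed to 785 to 965 CPM and to 845 to 1180 CPM. Within it Vwf, the von Willebrand factor of venous endothelium and platelets, measured 90.9 to 138.3 CPM in control hearts and 176.8, 380.6 and 159.2 CPM in transferred hearts (log2 fold change 1.17, edgeR adjusted p = 0.200). Aplnr, the apelin receptor of venous and sprouting endothelium, fell from 132.1 ± 17.4 to 70.3 ± 9.74 CPM (edgeR adjusted p = 0.0384). Among the broad markers Aqp1, a water channel of endothelium and red cells, fell from 839.1 ± 97.5 to 417.02 ± 67.7 CPM (edgeR adjusted p = 0.0384). Both calls were lost with the identifier covariate. The venous transcription factor Nr2f2 and the venous receptor Ephb4 had log2 fold changes of 0.16 and 0.23 (edgeR adjusted p = 0.728 and 0.419). Cardiomyocyte markers, which define the tissue, summed to 107212 to 121354 CPM in control hearts and 99662 to 131936 CPM in transferred hearts.

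Each member was also divided by a marker sum in the same heart, a ratio that does not depend on scaling between libraries. The venous sum holds Vwf, higher in every transferred heart, and Aplnr, lower in every one, so it is no fixed reference. Relative to the venous sum, the mean log2 ratio was higher in transferred hearts by 1.85 for Sele, by 2.44 for Ackr1 and by 0.78 for Vcam1, each with an exact two-sided permutation p of 0.0286. This is the smallest p that the 35 splits of 7 hearts allow, and it is not adjusted for the 6 ratios tested. The difference was 1.80 for Selp (exact permutation p = 0.0571) and -0.19 for F11r (exact permutation p = 0.2). Relative to pan-leukocyte markers, Selplg was higher by 0.34 (exact permutation p = 0.0857), with log2 ratios of -3.96 ± 0.23 (SD, n = 4) and -3.62 ± 0.17 (SD, n = 3), beside a log2 fold change of 1.19 in CPM. Without transferred heart 2 the differences were 1.25 for Sele, 1.14 for Selp, 1.90 for Ackr1 and 0.65 for Vcam1.

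The rest of the adhesion cascade was read from lists of its genes, also chosen with earlier results of these data known. The shares of all tested genes given beside list counts are therefore descriptive and no test of the lists. Across all 7667 tested genes the median log2 fold change was -0.002. In the list of selectins and selectin ligand carriers, 10 of 14 genes were tested and 0 passed the edgeR threshold in either direction. At an unadjusted p under 0.05, 7 were higher, or 4 of the 7 that are not members, against 7.17% of all tested genes. All 10 had positive log2 fold changes, with a median of 0.75, and of 0.26 over the 7 that are not members. Spn, the leukocyte sialoprotein CD43, measured 5.17, 5.50 and 0.988 CPM in transferred hearts against 0.486 to 1.29 CPM in controls, so its groups overlapped. Cd44, a hyaluronan receptor that E-selectin can bind, differed by 0.31, and the endothelial sialomucins Cd34, Podxl and Emcn differed by 0.16, 0.12 and 0.26.

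Of 17 listed enzymes that build selectin ligands, 6 were tested and 0 passed the edgeR threshold, with 1 higher and 1 lower at an unadjusted p under 0.05 (7.17% and 5.27% of all tested genes) and a median log2 fold change of -0.02. Tpst1 and Tpst2, which sulfate tyrosines of PSGL-1, had log2 fold changes of -0.25 and -0.04 (edgeR adjusted p = 0.325 and 0.886), and the galactosyltransferase B4galt1 had 0.27 (edgeR adjusted p = 0.301). Fut7, the fucosyltransferase of leukocyte selectin ligands, was below the filter, at 0 to 0.192 CPM in control hearts and 0.235 to 0.346 CPM in transferred hearts.

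Among leukocyte integrins and their activators, 8 of 15 listed genes were tested and 0 passed the edgeR threshold, with 6 higher at an unadjusted p under 0.05, against 7.17% of all tested genes. The median log2 fold change was 0.84, all 8 were positive, and in 6 of 8 every transferred heart was above every control heart, as in 5.99% of all tested genes. Itgax passed the filter only through the transferred hearts, with 0 of 4 control hearts above its cutoff. Over the other 7 genes, 5 did not overlap between groups, 5 were higher at an unadjusted p under 0.05 with edgeR, and the median was 0.76. The pan-leukocyte and broad myeloid marker lists had medians of 0.93 and 0.93, and their part in the integrin values was not tested. Itga4, the alpha chain of the VCAM-1 receptor VLA-4, differed by 0.93 (edgeR adjusted p = 0.156). Itgal, the alpha chain of LFA-1, to which JAM-A can bind, differed by 1.43 (edgeR adjusted p = 0.108), Itgam by 1.13 (edgeR adjusted p = 0.0642) and Itgax, with the limit given above, by 1.85 (edgeR adjusted p = 0.216). Of 15 listed partners of F11r at tight junctions, 10 were tested and 0 passed the edgeR threshold, with 1 lower at an unadjusted p under 0.05, against 5.27% of all tested genes. The median was -0.09, with 2 of 10 positive.

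Of 22 listed genes of cytokine receptors and NF-kB signalling, 13 were tested and 0 passed the edgeR threshold, with 6 higher at an unadjusted p under 0.05, against 7.17% of all tested genes. The median log2 fold change was 0.32, with 10 of 13 positive. Il1b, encoding interleukin 1 beta, had the highest value of the list and did not overlap between groups (log2 fold change 1.86, edgeR adjusted p = 0.221). Tnfrsf1b, TNF receptor type 2, had the smallest p of the list (log2 fold change 0.83, edgeR adjusted p = 0.0546), and Tnfrsf1a, the type 1 receptor, differed by 0.27 (edgeR adjusted p = 0.292). The interleukin 1 receptor Il1r1 differed by 0.39 (edgeR adjusted p = 0.548), Relb by 0.32 (edgeR adjusted p = 0.255), Traf1 by 0.44 (edgeR adjusted p = 0.665) and Nfkb1 by -0.05 (edgeR adjusted p = 0.831). Among other immunoglobulin-family and junctional molecules 4 of the listed genes besides Vcam1 and F11r were tested and 0 passed the edgeR threshold, with 1 higher at an unadjusted p under 0.05, against 7.17% of all tested genes, and a median of 0.11. The only other atypical chemokine receptor tested, Ackr3, had the opposite sign to Ackr1, at -0.37 (edgeR adjusted p = 0.324). By DESeq2, which called 2.5% of all tested genes higher, 5 genes of the selectin list, 4 of the integrin list, 2 of the cytokine receptor list and 1 each of the immunoglobulin-family and atypical receptor lists were called, all higher and members included. It called 0 of the ligand-building enzymes and 0 of the tight-junction partners, with 2 and 1 at an unadjusted p under 0.05.

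**Figure D4:**
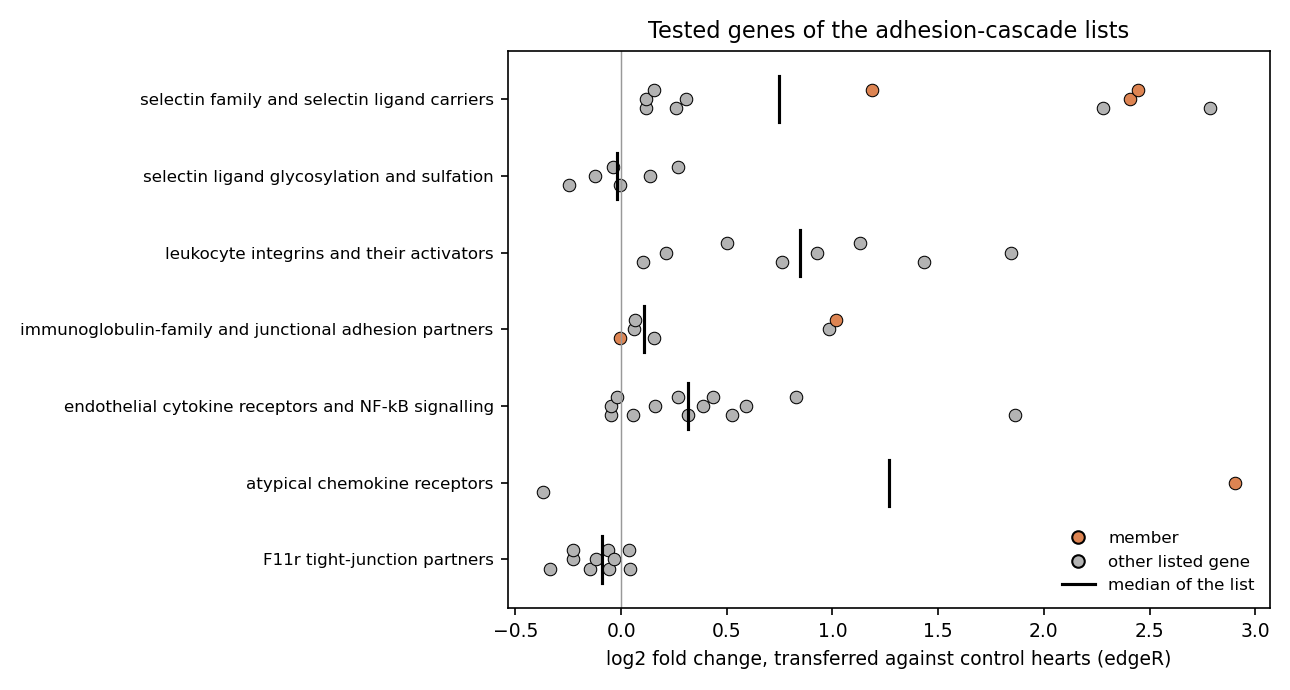
Log2 fold change of each tested gene in 7 lists of the adhesion cascade, from the edgeR fit over the whole table, with members in orange, other listed genes in grey and a black line at each list's median. Integrin genes all lie above 0 with a median of 0.84, while the ligand-building enzymes and the tight-junction partners of F11r lie around 0 with medians of -0.02 and -0.09.

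The genes most like each member over the 7 hearts were named by Pearson correlation of log2 CPM among 6998 genes of at least 1 CPM on average. For Sele they were Il1b (0.98), Il4ra (0.98) and Mdk (0.98). For Selp they included Tinagl1 (0.98) and Pglyrp1 (0.98), and for Ackr1 they were Lgi2 (0.99), Ppargc1a (0.98) and Kmo (0.98). Vcam1 was most like Tmem176b, Tlr1 and Fcgr2b (0.99 each), and Selplg was most like Cd163 (0.99), a macrophage scavenger receptor, and the complement genes C1qc (0.99) and C1qa (0.98). For F11r the closest were Gm11575 (0.96), Gm15785 (0.95) and Nanp (0.95). With so many genes and 7 hearts, correlations of this size describe the shared profile of these libraries only.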

How the data were processed

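The authors deposited a table of estimated counts per gene, unnormalized, in which 4.63% of values had a fractional part. The submitters' processing notes name STAR 2.7.2b, featureCounts 1.6.4 and the build GRCm38.p6, with no settings, and per the series design reads were paired and 75 nt long. The 20343 complete rows were used, 1 unfinished row was dropped, and all gene identifiers and start positions matched the RefSeq table of GRCm38.p6. Genes beyond the first part of chromosome 8 are not analysed here.

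Counts were rounded, filtered with filterByExpr, scaled by TMM and tested with the robust quasi-likelihood test of edgeR 4.0.16 in R 4.3.3, without covariates, with Benjamini-Hochberg adjustment over 7667 genes at 0.05. Standard errors and 95% intervals of log2 fold changes came from its F statistic. CPM are TMM-scaled. Log2 CPM used a prior count of 2. DESeq2 1.42.0, voom of limma 3.58.1, other scalings and filters, unrounded counts, an identifier covariate and leaving out hearts were alternatives. Per-heart intervals are exact Poisson. The procedure was also run on simulated counts, and the outcome is not reported here.

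The members and gene lists were chosen with earlier results of these data known. Named genes are the members, genes fixed by name with the lists, list genes past the threshold and the 3 genes most like each member. Outside that rule, Cadm3, F5, Pf4, Ackr3 and the globins were named after their values were seen. Some genes that the rule names are not reported here. Hearts are numbered within a group in accession order, which pairs none of them.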

Additional observations from a re-analysis of the deposited data

How the results depend on the processing

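Over 18 alternative fits, Sele, Selp, Selplg, Vcam1 and Ackr1 were higher in transferred hearts in every one, with log2 fold changes of 1.34 to 2.84, 1.24 to 3.14, 0.95 to 1.44, 0.69 to 1.18 and 1.93 to 3.33. Against 0 of 6 members called, DESeq2 gave 5, with log2 fold changes of 2.41 for Sele, 2.44 for Selp, 1.19 for Selplg, 1.02 for Vcam1 and 2.93 for Ackr1 (DESeq2 adjusted p from 0.000174 to 0.0416), and a filter of only 1 count per gene gave 1, Ackr1 (2.90). Fits that each left out a heart gave 0 to 3, with log2 fold changes of 1.34 to 2.84 for Sele, 0.95 to 1.44 for Selplg, 0.69 to 1.18 for Vcam1 and 1.93 to 3.29 for Ackr1. Other alternatives gave 0, with 5 members at an unadjusted p under 0.05 in each, limma-voom included. F11r, near 0 throughout, changed sign with total count scaling (0.015), the identifier covariate (0.0065) and without the hearts whose identifier begins with letters (0.016), and ran from -0.040 to 0.040 with single hearts left out. Relative to broad rather than venous endothelial markers it differed by 0.11 (exact permutation p = 0.257), and Selp then by 2.10 (exact permutation p = 0.0286). Leaving out a heart from the ratios leaves too few splits to reach 0.05.

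Over the whole table the 18 called genes became 35 with total count scaling, 81 with that filter and 252 with DESeq2. They became 0 with limma-voom, 0 with the identifier covariate and 0 without the hearts whose identifier begins with letters, where 907, 973 and 1054 genes had an unadjusted p under 0.05. With single hearts left out they ran from 0 to 140. edgeR called 0 without control heart 1, 2 or 4 or transferred heart 2 (831, 658, 773 and 706 at an unadjusted p under 0.05), 1 without control heart 3 and 140 without transferred heart 3. The cause was not tested. Rounded counts of Ackr1 in control hearts were 4 to 10, which limits its precision there. No paired analysis was possible because the labels pair no hearts across the groups.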

Other observations

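F5 lies next to Selp on chromosome 1 (164151835 to 164220277), on the same strand. F5, coagulation factor V, did not share the order of Selp over the transferred hearts. It measured 4.46 and 7.10 CPM in transferred hearts 1 and 2 and 0.445 CPM in transferred heart 3, against 0.215 to 1.38 CPM in control hearts (log2 fold change 2.18, edgeR adjusted p = 0.345). Its high hearts were those in which platelet and megakaryocyte markers were high, and Pf4, platelet factor 4, measured 55.8, 79.3 and 25.05 CPM in transferred hearts 1 to 3 against 18.7 to 22.7 CPM in control hearts. The difference between these orders was not tested.

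Cxcr2, a chemokine receptor of neutrophils, averaged 0.487 ± 0.236 CPM (SD, n = 4) in control hearts and 6.45 ± 8.64 CPM (SD, n = 3) in transferred hearts, and Csf3r, the receptor of granulocyte colony-stimulating factor, averaged 3.34 ± 0.635 and 11.01 ± 10.4 CPM. S100a8 and S100a9 averaged 1.67 ± 0.333 and 3.95 ± 1.32 CPM in control hearts and 28.02 ± 38.5 and 53.01 ± 73.7 CPM in transferred hearts. For each of these genes the SD of the transferred hearts was close to or above the mean. The groups overlapped for Csf3r and S100a9. The edgeR adjusted p was 0.193 for Cxcr2, 0.279 for Csf3r, 0.248 for S100a8 and 0.283 for S100a9.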
